A study of Homo sapiens with 12 samples.

Results

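Small nucleolar RNA (snoRNA) host genes were followed in HCT116 cells kept with or without cystine. The set holds every gene of the deposited count table named SNHG followed by a number, together with GAS5, ZFAS1 and EPB41L4A-AS1. It comprised 31 of 60987 rows, and 29 of the 31 were among the 16994 genes with enough counts to be tested. SNHG27 reached at most 4 estimated counts in any sample, SNHG18 was at 0 in all 12 samples, and neither was tested. HCT116 is an established human colorectal carcinoma line, of wild-type genotype (WT) in the labels in all samples. Control cells stayed in full DMEM, whereas deprived cells were washed and given DMEM with 0 mM cystine. Both media held 10% fetal bovine serum and antibiotics, and cells were harvested at 24 h or 48 h, with 3 samples for each of the 4 combinations. A wash with new medium is described for deprived cells only, so its effect and that of the missing cystine cannot be told apart. Nothing in the labels says whether the 3 samples of a combination were grown as separate cultures. The p-values therefore describe the spread among the samples at hand, and that spread may be technical.

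A snoRNA host gene carries snoRNAs inside its introns, and the snoRNAs are trimmed out of the excised introns after splicing. Box C/D snoRNAs guide ribose methylation of ribosomal RNA, box H/ACA snoRNAs guide its pseudouridylation, and small Cajal body RNAs (scaRNAs) guide the same modifications on spliceosomal RNAs. The spliced exons of most of these genes do not encode a known protein. Several of the spliced RNAs enter ribosomes all the same and are removed by nonsense-mediated decay, a translation-dependent pathway. Many host genes start with a 5′ terminal oligopyrimidine (TOP) tract, a C followed by an unbroken run of C or T, as ribosomal protein genes do. In the cell, mTOR signalling and LARP1 control the translation and stability of RNAs with such a start.

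The first bases of the RNAs are shown because the TOP tract is the sequence feature that links many host genes, including members with opposite responses. Capitals mark the unbroken pyrimidine run at the first base. Each is written 5′ to 3′ over 30 bases on GRCh38, from 1 annotated transcript of the gene in GENCODE release 29. Where several transcripts of a gene have a TOP start, the start that most of them share is given, and where none has, the one nearest to the RefSeq start. SNHG32 alone is given at its RefSeq start (GRCh38.p14), as none of its 11 GENCODE transcripts has a TOP start. The reverse holds for GAS5, SNHG29, SNHG3 and SNHG16, which have no such tract at their RefSeq starts. The first 5 had higher levels in deprived cells at both times.
GAS5 (chr1:173867960-173867989, minus strand): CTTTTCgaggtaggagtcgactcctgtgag
ZFAS1 (chr20:49278642-49278671, plus strand): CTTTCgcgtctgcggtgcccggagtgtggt
SNHG32 (chr6:31834916-31834945, plus strand): CTTTTTgcgaagtgggctcgtgggttggca
SNHG5 (chr6:85678704-85678733, minus strand): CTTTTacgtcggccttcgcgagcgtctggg
SNHG29 (chr17:16439037-16439066, plus strand): CTTTTCattcccgttgttatggaggtaggc
The next 4 were lower in deprived cells at 1 or both times.
SNHG3 (chr1:28506043-28506072, plus strand): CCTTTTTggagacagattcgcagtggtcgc
SNHG4 (chr5:139274102-139274131, plus strand): CCTTTCCCCTCCggcctctgccggtgctgc
SNHG19 (chr16:2155329-2155358, minus strand): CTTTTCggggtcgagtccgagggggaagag
SNHG16 (chr17:76557769-76557798, plus strand): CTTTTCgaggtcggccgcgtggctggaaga
The last 3 have no such tract in any annotated transcript, and the first pair of them rose while SNHG7 fell.
EPB41L4A-AS1 (chr5:112160526-112160555, plus strand): Tgtcgggtcccaaaatacgtggtctaaagt
SNHG15 (chr7:44986645-44986674, minus strand): gtgcgcggcgcagcgcgcggcgtcagtctt
SNHG7 (chr9:136728155-136728184, minus strand): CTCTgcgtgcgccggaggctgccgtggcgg
With a TOP start taken as C followed by at least 4 pyrimidines, 15 of 31 host genes (48.39%) had at least 1 annotated transcript with such a start. The same held for 6.59% of all genes of the table with annotated transcripts, 4.01% of other long noncoding genes and 77.91% of cytosolic ribosomal protein genes. A gene with more annotated transcripts can meet this rule more easily. Counted by transcript, 39 of 292 of the host genes (13.36%) had a TOP start, and most did not. The shares were 2.41% for all genes, 2.38% for other long noncoding genes and 20.17% for ribosomal protein genes. At the single RefSeq start of a gene, 7 of 27 host genes (25.93%) had it, against 4.07% of all starts. In the transcripts shown, GAS5 and SNHG29, which rose, and SNHG16 and SNHG19, which fell at 1 or both times, begin with the same run of 6 pyrimidines.

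Estimated counts summed to between 19146108 and 24179533 in each sample. Of 10 markers of colorectal epithelial cells 7 passed the count filter, CDX1 was at 0, and the summed level of the list was higher in deprived cells without overlap. It was 3671 to 4076 CPM (counts scaled to equal library size) in control and 5070 to 5199 CPM in deprived cells at 24 h, and 3973 to 4382 and 4717 to 5254 CPM at 48 h. The leukocyte markers PTPRC and CD3E were at 0 in every sample, and the summed level of that list of 7 was 4.82 to 5.54 CPM in control cells at 24 h and 11.4 to 12.4 CPM in deprived cells. After 48 h this sum was 11.1 to 11.2 CPM in control and 23.1 to 27.4 CPM in deprived cells, and CD68 and ITGAM were the 2 members of the list that passed the filter. The fibroblast list summed to 32.4 to 49.4 CPM in control cells and 16.3 to 22.6 CPM in deprived cells, the endothelial list to 44.9 to 58.0 and 20.1 to 33.4 CPM, and the neural list to at most 3.34 CPM. The part of these levels in the host gene results was not tested. Mature snoRNAs were hardly measured: 76 of 540 rows named as snoRNAs or scaRNAs had any count, 4 passed the filter, and they summed to 254 to 433 counts per library.

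After 24 h without cystine the host genes split. Several of the most abundant members rose, GAS5 by 3.85-fold and SNHG32 by 3.88-fold, whereas SNHG7, SNHG4, SNHG3 and less abundant members fell. By edgeR's quasi-likelihood test with Benjamini-Hochberg adjustment over all genes, 13 of 29 tested host genes were higher (44.8%) and 8 were lower (27.6%). Of all 16994 genes, 28.8% were called higher and 26.9% lower, so the share that fell was near the background. By at least 2-fold, 6 host genes were higher and 2 lower, where 4.84% and 6.26% of all genes were. Deprived and control samples did not overlap for 13 host genes on the higher side and 10 on the lower side, where they did not for 32.1% and 30.7% of all genes. Among 2147 other long noncoding genes tested, 14.2% were higher and 15% lower. The median log2 fold change of the 29 was -0.04, next to -0.01 for all genes. In bulk RNA, fewer cells with a transcript and less transcript per cell cannot be told apart.

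**Figure D1:**
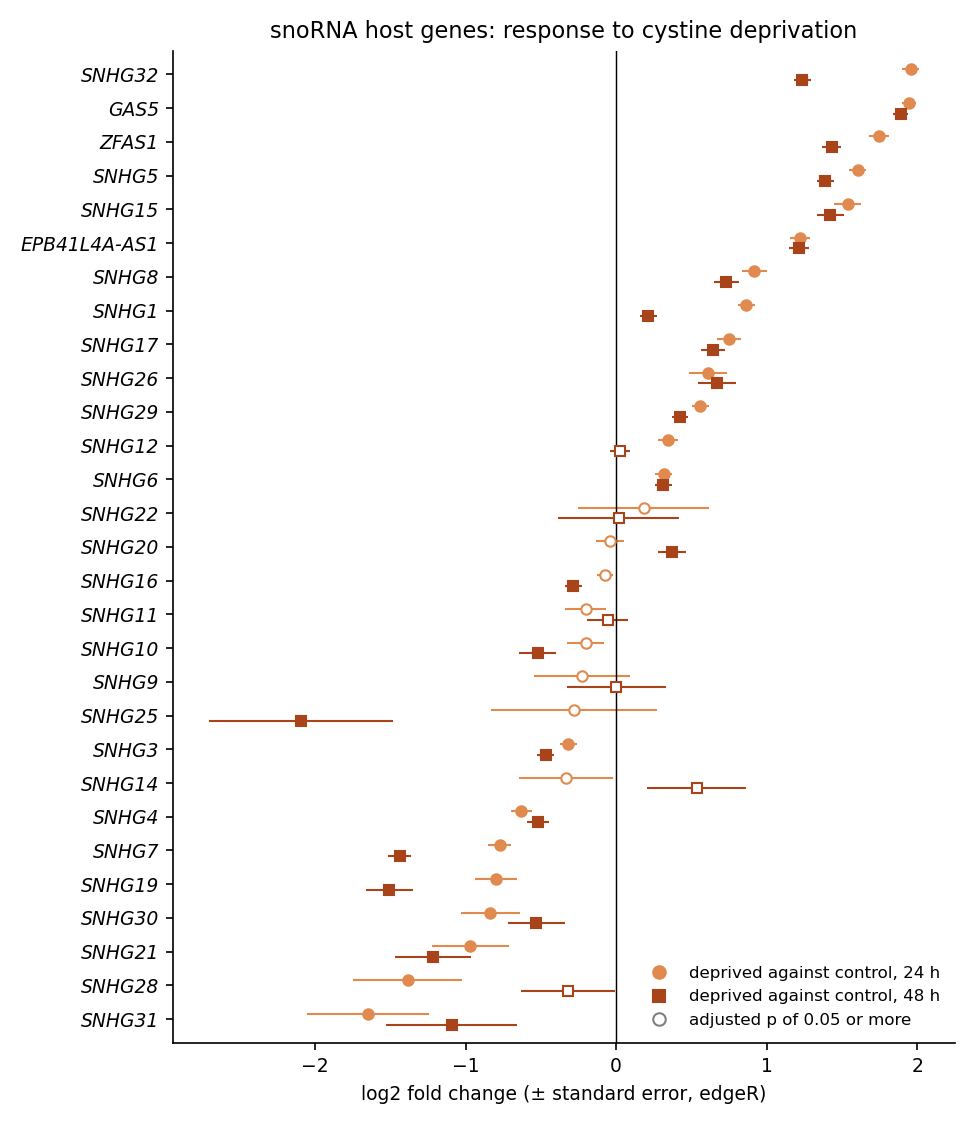
Log2 fold change (x axis, ± standard error) of the 29 tested snoRNA host genes in deprived against control cells, at 24 h (circles) and 48 h (squares), in the order of the 24 h value. Open symbols have an adjusted p of 0.05 or more. SNHG32 and GAS5 lie near 2 at 24 h, SNHG31 at -1.65, and the whiskers are wide for members of low count such as SNHG25.

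A snoRNA is given to a host here where RefSeq places it within the span of the gene, with neither strand nor intron checked. At 24 h the 4 largest rises were in SNHG32, GAS5, ZFAS1 and SNHG5, which hold box C/D snoRNAs, GAS5 with an H/ACA snoRNA besides. GAS5 (chr1:173863900-173868882, minus strand, GRCh38) is a noncoding gene first described in growth-arrested cells, whose span holds 11 RefSeq snoRNAs, among them SNORD44 and SNORD74 to SNORD81. It measured 163.5, 165 and 154 CPM in the control samples at 24 h and 619, 623 and 617 CPM in the deprived samples. All deprived samples lay far above all controls, and the log2 fold change was 1.94 ± 0.05 (SE, adjusted p = 4.01e-16 by edgeR). Its 48 h values were 178, 177.5 and 182 CPM in control and 638.5, 697 and 655 CPM in deprived cells. The groups were again far apart, with a 3.71-fold rise at 48 h after 3.85-fold at 24 h.

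ZFAS1 (chr20:49278178-49295738, plus strand), which starts beside the 5′ end of ZNFX1 on the other strand and hosts SNORD12, SNORD12B and SNORD12C, measured 112, 127 and 108 CPM in control and 409, 371 and 384 CPM in deprived cells at 24 h. At 48 h the values were 125.5, 135 and 144 CPM in control and 343, 378 and 368 CPM in deprived cells. The groups did not overlap at either time, and the log2 fold change was 1.75 ± 0.07 at 24 h (adjusted p = 1.02e-13 by edgeR) and 1.43 ± 0.07 at 48 h.

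SNHG32 (chr6:31834608-31839766, plus strand), which the annotation calls protein-coding under the older name C6orf48 and which hosts SNORD48 and SNORD52, had the largest log2 fold change of the 29 at 24 h. It measured 77, 79.8 and 78.8 CPM in control and 305, 310.4 and 298 CPM in deprived cells at 24 h. At 48 h it measured 92.9, 106 and 107 CPM in control and 229, 249.7 and 242 CPM in deprived cells. Its controls were higher and its deprived samples lower at 48 h than at 24 h, with no overlap on either side. The log2 fold change was 1.95 ± 0.06 at 24 h (adjusted p = 2.78e-15 by edgeR) and 1.24 ± 0.06 at 48 h.

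SNHG5 (chr6:85660950-85678748, minus strand), host of SNORD50A and SNORD50B, measured 47.5, 47.9 and 43.2 CPM in control and 139, 139 and 143.5 CPM in deprived cells at 24 h. After 48 h it measured 56.3, 55.9 and 55.9 CPM in control and 137, 148 and 155 CPM in deprived cells. It rose 3.04-fold and 2.62-fold (adjusted p = 5.23e-14 and 7.79e-14 by edgeR), and its 3 deprived samples stood above its controls at both times.

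SNHG29 (chr17:16438822-16478678, plus strand, called LRRC75A-AS1 in GENCODE), host of SNORD49A, SNORD49B and SNORD65, rose by less. It had the highest mean CPM of any host gene over all 12 samples, though GAS5 had a higher mean in deprived cells at 48 h (664 against 655 CPM). The controls of SNHG29 measured 481, 502 and 478 CPM at 24 h against 729, 698 and 725 CPM in deprived cells. At 48 h these were 463, 507 and 491 CPM and 605.5, 696.5 and 662 CPM. The groups were apart at both times, with log2 fold changes of 0.56 ± 0.05 and 0.43 ± 0.05 (adjusted p = 5.04e-08 and 8.93e-07 by edgeR).

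SNHG1 (chr11:62851988-62855914, minus strand), host of 8 box C/D snoRNAs from SNORD22 to SNORD31, measured 140.0, 140.3 and 136 CPM in control and 260.1, 256 and 242 CPM in deprived cells at 24 h. At 48 h it measured 116, 122 and 125 CPM in control and 151, 139.8 and 131 CPM in deprived cells. The gap between the groups at 24 h, 0.86 ± 0.06 on the log2 scale, was smaller at 48 h, 0.21 ± 0.06 (adjusted p = 0.00237 by edgeR), though the samples still did not overlap.

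SNHG6, host of SNORD87, measured 126, 129 and 126 CPM in control and 168, 151 and 156 CPM in deprived cells at 24 h, and 138, 146 and 155 CPM and 171.5, 187 and 187 CPM at 48 h. It rose 1.25-fold and 1.24-fold (adjusted p = 0.000107 at 24 h and 6.41e-05 at 48 h by edgeR), with no overlap. SNHG26, host of SNORD93 and the least abundant member that rose, went from 9.04 ± 1.33 to 13.8 ± 0.702 CPM at 24 h (SD, n = 3) and from 7.65 ± 0.609 to 12.2 ± 1.92 CPM at 48 h (adjusted p = 0.000401 and 0.000124 by edgeR).

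**Figure D2:**
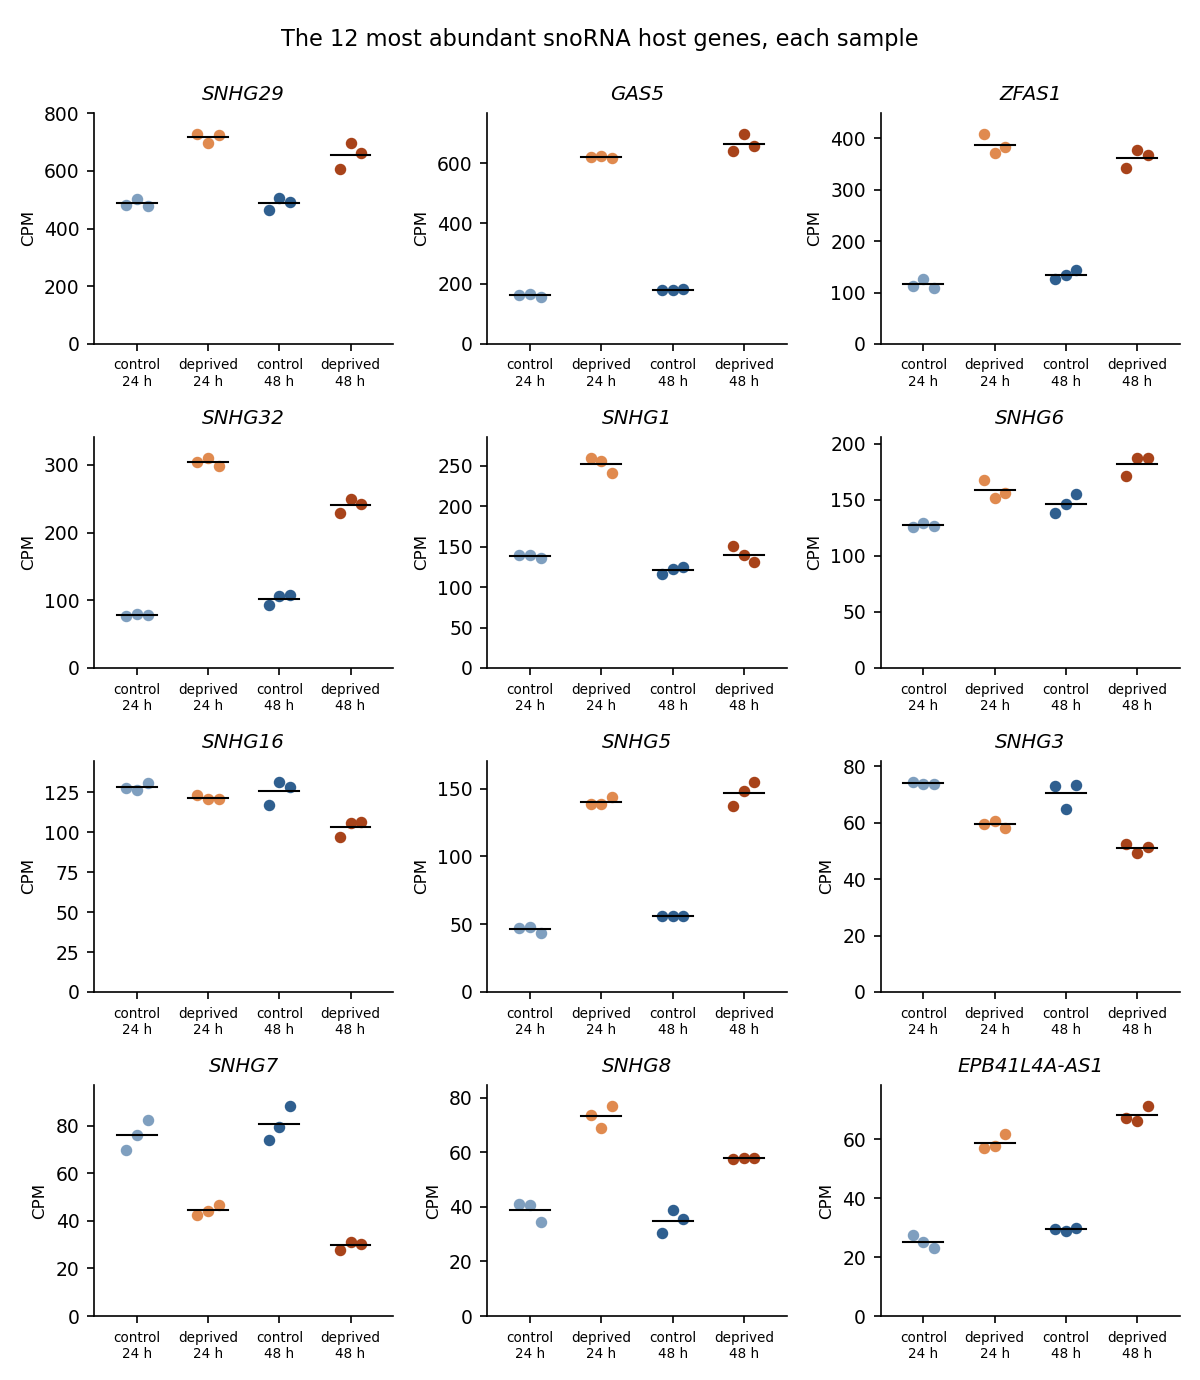
Level (y axis, CPM on TMM-scaled libraries, from 0) of the 12 most abundant snoRNA host genes in each of the 12 samples (points), with the group mean (line), for control and deprived cells at 24 h and 48 h. GAS5, ZFAS1, SNHG32 and SNHG5 show deprived samples far above controls, SNHG16 and SNHG3 sit lower in deprived cells at 48 h, and SNHG7 falls at both times.

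Other box C/D hosts went down or did not pass the test. SNHG16 (chr17:76557766-76565348, plus strand), host of SNORD1A, SNORD1B and SNORD1C, measured 127, 126 and 130.4 CPM in control and 123, 120.5 and 121 CPM in deprived cells at 24 h, and 117, 131 and 128 CPM and 97.2, 106 and 107 CPM at 48 h. Its deprived samples were below its controls at both times, and the difference was called at 48 h, when SNHG16 fell by 0.28 ± 0.05 on the log2 scale (adjusted p = 0.000126 by edgeR, against 0.247 at 24 h). At 24 h it passed under upper-quartile scaling and with library totals as the scale (adjusted p = 0.0181 and 0.00947).

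SNHG19 (chr16:2154797-2155358, minus strand), host of SNORD60, measured 12.4, 12.7 and 10.4 CPM in control and 8.04, 5.83 and 6.59 CPM in deprived cells at 24 h. By 48 h it measured 9.03, 10.2 and 11.6 CPM in control and 3.61, 3.06 and 4.14 CPM in deprived cells. Control and deprived samples did not overlap, and the level was 1.74-fold lower at 24 h and 2.84-fold lower at 48 h (adjusted p = 9.63e-05 and 5.12e-08 by edgeR). Its TOP start has the same first 6 bases as that of GAS5, which rose.

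SNHG30 (chr17:35568109-35574843, plus strand), host of SNORD7, measured 3.88, 3.34 and 3.64 CPM in control and 1.9, 2.29 and 1.88 CPM in deprived cells at 24 h, and 3.49, 4.66 and 3.58 CPM and 2.46, 2.6 and 3.05 CPM at 48 h. It fell by 0.83 ± 0.20 at 24 h (adjusted p = 0.00135) and by 0.53 ± 0.19 at 48 h on the log2 scale (adjusted p = 0.0179, both by edgeR). The call at 48 h was lost without control replicate 2, deprived replicate 1 or deprived replicate 2 of that time (adjusted p = 0.111, 0.0663 and 0.0542).

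SNHG25, host of SNORD104, was at most 1.32 CPM in any sample. It went from 0.86 ± 0.471 to 0.196 ± 0.16 CPM at 48 h, a log2 fold change of -2.09 ± 0.61 with a wide error (adjusted p = 0.00515 by edgeR), and was not called at 24 h (-0.28 ± 0.55). SNHG14, the imprinted host of the SNORD115 and SNORD116 clusters in RefSeq, reached at most 2.22 CPM in any sample and was not called at either time (log2 fold changes -0.33 ± 0.31 and 0.53 ± 0.33), although its 3 deprived samples lay above its controls at 48 h.

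Among hosts of box H/ACA snoRNAs alone, 4 of 10 tested members rose and 4 fell at each time, where 28.8% and 26.9% of all genes did at 24 h and 33.5% and 34.9% at 48 h. SNHG8 (chr4:118278709-118279823, plus strand), host of SNORA24, measured 41.2, 40.6 and 34.4 CPM in control and 73.8, 69 and 77 CPM in deprived cells at 24 h, and 30.2, 38.9 and 35.4 CPM and 57.7, 58 and 57.7 CPM at 48 h. The groups were apart at both times, with rises of 1.89-fold and 1.66-fold (adjusted p = 1.53e-08 and 1.67e-07 by edgeR).

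EPB41L4A-AS1 (chr5:112160526-112164276, plus strand), host of SNORA13, measured 27.5, 25.3 and 23 CPM in control and 57.1, 57.9 and 61.7 CPM in deprived cells at 24 h, and 29.5, 28.9 and 29.9 CPM and 67.3, 66.3 and 71.3 CPM at 48 h. Its samples did not overlap at either time, and its fold changes were 2.33 and 2.32 (adjusted p = 1.99e-11 and 3.86e-12 by edgeR). SNHG15 (chr7:44983023-44986961, minus strand), host of SNORA9, measured 19.7, 16.6 and 14.4 CPM in control and 47.4, 52.3 and 47.8 CPM in deprived cells at 24 h, and 19.2, 20.2 and 18.8 CPM and 48.1, 52.8 and 55.1 CPM at 48 h. No sample of SNHG15 crossed between groups, and it rose 2.9-fold and 2.68-fold (adjusted p = 5.09e-11 and 3.03e-11 by edgeR). Neither EPB41L4A-AS1 nor SNHG15 has a TOP start in the annotation.

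SNHG17 and SNHG11 are neighbours on chromosome 20 (38420588 to 38435353 and 38446578 to 38450921) and host copies of the same snoRNA, SNORA71A to SNORA71D in SNHG17 and SNORA71E, beside SNORA60, in SNHG11. SNHG17 rose from 16.4 ± 1.7 to 27.6 ± 1.36 CPM at 24 h and from 16.1 ± 0.231 to 25.2 ± 0.991 CPM at 48 h (adjusted p = 2.07e-07 and 6.95e-07 by edgeR). SNHG11 was not called, with log2 fold changes of -0.20 ± 0.14 and -0.06 ± 0.14 (adjusted p = 0.224 and 0.732 by edgeR). The difference between these neighbours was not tested.

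SNHG3 (chr1:28505980-28510892, plus strand), host of SNORA73A and SNORA73B, measured 74.5, 73.8 and 73.8 CPM in control and 59.6, 60.7 and 58.1 CPM in deprived cells at 24 h, and 73.1, 65 and 73.5 CPM and 52.4, 49.2 and 51.4 CPM at 48 h. It fell by 0.32 ± 0.06 and by 0.47 ± 0.06 on the log2 scale without overlap (adjusted p = 9.16e-05 and 5.01e-07 by edgeR). SNHG4 (chr5:139274102-139284899, plus strand), host of SNORA74A and SNORA74D, fell from 48.7 ± 3.07 to 31.5 ± 0.585 CPM at 24 h and from 37.7 ± 2.77 to 26.4 ± 1.72 CPM at 48 h (adjusted p = 3.9e-07 and 3.46e-06 by edgeR).

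SNHG7 (chr9:136721366-136728184, minus strand), host of SNORA17A and SNORA17B, was one of the 3 members with a mean above 10 CPM over all samples that fell at 24 h. It measured 69.8, 75.9 and 82.5 CPM in control and 42.6, 44.1 and 46.6 CPM in deprived cells at 24 h. At 48 h it measured 74, 79.4 and 88.3 CPM in control and 27.9, 31.1 and 30.2 CPM in deprived cells. The samples were far apart at both times, 1.71-fold lower at 24 h and 2.71-fold lower at 48 h (adjusted p = 4.56e-08 and 3.4e-12 by edgeR).

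SNHG31 (chr2:214810229-214963274, plus strand), host of SNORA70I, never exceeded 25 estimated counts. In deprived cells it had 8, 8 and 9 at 24 h and 4, 12 and 5 at 48 h, mostly under the filter minimum of 10. It therefore passed the filter through its control samples, a choice that favours a fall. With this limit SNHG31 is counted among the members lower, and lower by at least 2-fold, at both times. It went from 1.18 ± 0.0505 to 0.374 ± 0.0243 CPM at 24 h, a fall of 3.13-fold (adjusted p = 0.002 by edgeR), and from 0.685 ± 0.0473 to 0.32 ± 0.206 CPM at 48 h. The call at 48 h (adjusted p = 0.0328) was lost in 8 of 19 alternatives. It was lost without control replicate 1, 2 or 3 of that time (adjusted p = 0.0658, 0.0551 and 0.079) and without deprived replicate 1 or 3 (0.151 and 0.124). SNHG9, host of SNORA78, reached at most 1.75 CPM and was not called at either time.

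GAS5 and SNHG12 hold snoRNAs of both kinds in RefSeq. SNHG12 (chr1:28578538-28583132, minus strand), host of SNORD99, SNORA61, SNORA44 and SNORA16A, rose from 44.4 ± 1.83 to 56.5 ± 1.45 CPM at 24 h (adjusted p = 0.000187 by edgeR). After 48 h it stood at 38.6 ± 1.18 CPM in control and 39.3 ± 3.83 CPM in deprived cells and was not called (adjusted p = 0.744).

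Of the 4 hosts of scaRNAs, SNHG21 was called at 24 h, and SNHG10, SNHG20 and SNHG21 at 48 h. Of all genes 28.8% were called higher and 26.9% lower at 24 h, and 33.5% and 34.9% at 48 h, so these counts are a description only. SNHG21 (chr15:82750564-82757206, plus strand), host of SCARNA15, measured 2.41, 2.46 and 3.64 CPM in control and 1.41, 1.43 and 1.5 CPM in deprived cells at 24 h, and 2.94, 3.7 and 3.17 CPM and 1.54, 0.928 and 1.73 CPM at 48 h. Its deprived samples were the lower ones throughout, by 1.96-fold and 2.33-fold (adjusted p = 0.00352 and 0.000304 by edgeR). SNHG10, host of SCARNA13, fell from 6.14 ± 0.171 to 4.28 ± 0.118 CPM at 48 h (adjusted p = 0.00108 by edgeR, against 0.169 at 24 h). SNHG20, host of SCARNA16, rose from 9.31 ± 0.747 to 12 ± 0.319 CPM at 48 h (adjusted p = 0.00176, against 0.733 at 24 h). SNHG22, host of SCARNA17, stayed under 1 CPM and was not called.

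SNHG28 (chr1:159834495-159855237, minus strand), inside which RefSeq places no snoRNA, measured 1.8, 1.49 and 1.38 CPM in control and 0.39, 0.864 and 0.514 CPM in deprived cells at 24 h, and 2.94, 1.74 and 1.51 CPM and 1.98, 1.3 and 1.69 CPM at 48 h. It was 2.61-fold lower at 24 h without overlap (adjusted p = 0.00309 by edgeR), and its groups overlapped at 48 h (adjusted p = 0.372).

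At 48 h, 13 of 29 host genes were higher (44.8%) and 10 lower (34.5%), against 33.5% and 34.9% of all genes. Deprived and control samples did not overlap for 14 host genes on the higher side and 10 on the lower side, against 34.2% and 35.8% of all genes. A change of 2-fold or more was called for 6 higher and 5 lower members, against 8.59% and 15.3% of all genes, and the 6 higher ones were the same genes that rose at least 2-fold at 24 h: GAS5, SNHG32, ZFAS1, SNHG5, SNHG15 and EPB41L4A-AS1. Of the other long noncoding genes 19.4% were higher and 25.1% lower. The median log2 fold change was 0.03 for the host genes and -0.02 for all genes. Between the times, 12 host genes were called higher at both, 7 lower at both and 0 turned from one direction to the other. The matching counts over all genes were not made, so these numbers are a description only. SNHG11, SNHG14, SNHG9 and SNHG22 were called at neither. Each comparison has its own 3 control samples.

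**Figure D3:**
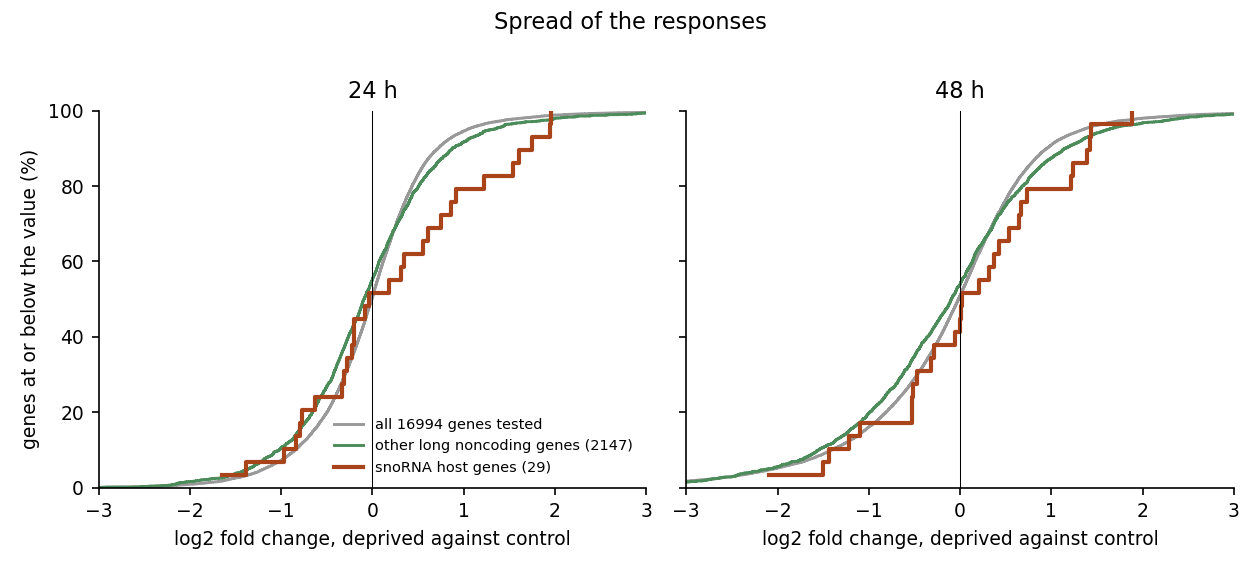
Share of genes (y axis, %) at or below each log2 fold change (x axis, deprived against control) at 24 h and 48 h, for all 16994 genes tested, 2147 other long noncoding genes and the 29 snoRNA host genes. The host gene curve lies to the right of the others over most of the range above 0, where 13 members were called higher at each time, and its median is -0.04 at 24 h and 0.03 at 48 h.

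Summed over all 31 rows, host gene RNA went from 1681 ± 38 CPM in control to 3154 ± 40.6 CPM in deprived cells at 24 h (SD, n = 3), 1.88 times the control. After 48 h the sum went from 1732 ± 66.9 to 2890 ± 114 CPM, 1.67 times the control. The ranges, 1644 to 1720 against 3120 to 3199 CPM at 24 h and 1656 to 1783 against 2768 to 2993 CPM at 48 h, did not overlap. SNHG29, GAS5, ZFAS1 and SNHG32 together held 50.1% of the summed level in control cells and 64.3% in deprived cells at 24 h, and 52.2% and 66.5% at 48 h. The other 27 rows went from 839.5 ± 12.2 to 1125 ± 11.6 CPM at 24 h and from 828.5 ± 31.7 to 968.5 ± 14.6 CPM at 48 h.

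**Figure D4:**
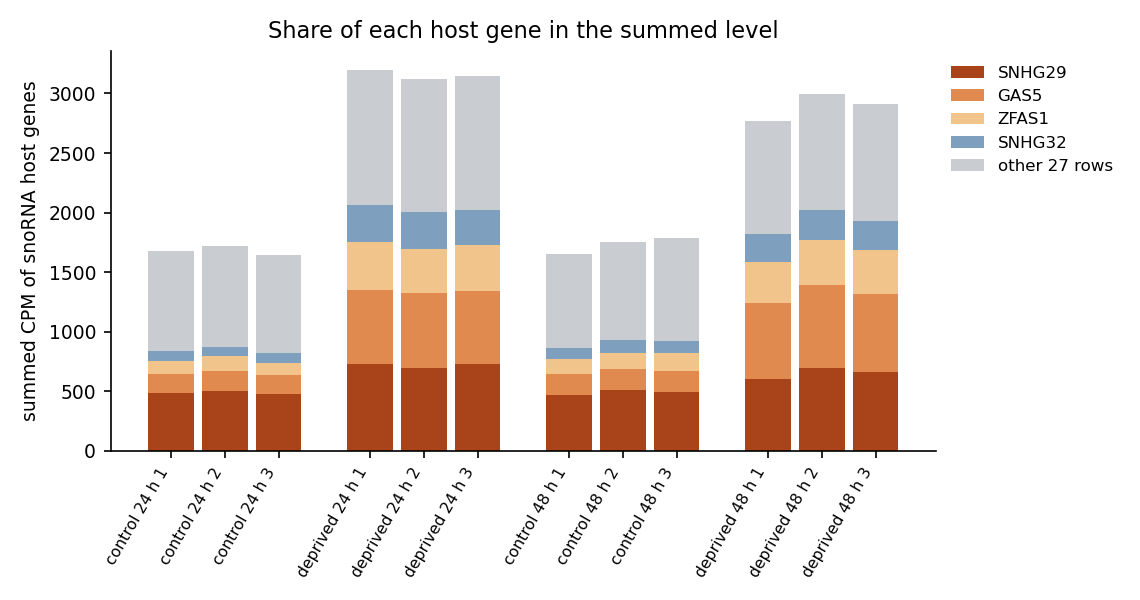
Summed level (y axis, CPM, from 0) of the 31 snoRNA host gene rows in each of the 12 samples, stacked as SNHG29, GAS5, ZFAS1, SNHG32 and the other 27 rows. The deprived samples reach 3120 to 3199 CPM at 24 h and 2768 to 2993 CPM at 48 h, and the controls at most 1783 CPM.

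Response and level went together within the set. All 13 members called higher at 24 h were among the 18 with a mean above 10 CPM, of which 3 were lower. Of the 8 members at 1 to 10 CPM, 4 were lower at each time and the other 4 were not called. Of all genes, 28.8% were higher and 26.9% lower at 24 h, and 33.5% and 34.9% at 48 h. Whether all genes split by level in the same way was not tested. The median log2 fold change of these 8 members was -0.56 at 24 h and -0.42 at 48 h, against 0.68 and 0.54 for the 18 above 10 CPM. The mean over all samples that sorts them includes the deprived samples, and precision falls with the count, so the split is a description only.

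Levels per kilobase use the length given in the deposited table, which need not be that of the spliced RNA. For SNHG8 it is 6165 bases, where the whole gene spans 1115 bases in GENCODE, and for SNHG6 it is 648 bases. The order between genes therefore depends on these lengths. On this scale SNHG6 had the highest level in control cells at 24 h, 196 ± 2.64 CPM per kb. SNHG29 followed with 147 ± 3.94, SNHG32 with 74.6 ± 1.34 and GAS5 with 51.2 ± 1.92 CPM per kb, and none of these 4 overlapped its neighbour in the order. SNHG1, SNHG16, SNHG19 and SNHG7 came next, between 36.8 and 32.3 CPM per kb, and each overlapped the next of these. In deprived cells at 24 h the order became SNHG32 at 289, SNHG6 at 244, SNHG29 at 217 and GAS5 at 197 CPM per kb, again with no overlap between neighbours. At 48 h deprived cells had SNHG6 at 281, SNHG32 at 228, GAS5 at 211 and SNHG29 at 198 CPM per kb, and the last 3 overlapped in this order.

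The response changed between 24 h and 48 h for 9 members by the test of the interaction, 8 of them with a smaller rise or a deeper fall at 48 h. These are 27.6% lower and 3.45% higher, where 19.2% and 16.4% of all genes were. SNHG32, SNHG1 and ZFAS1 rose less at 48 h, with differences of -0.72 ± 0.08, -0.65 ± 0.08 and -0.32 ± 0.09 on the log2 scale (adjusted p = 1e-06, 3.09e-06 and 0.0113 by edgeR). SNHG12, with -0.32 ± 0.09 (adjusted p = 0.0126), was called higher at 24 h and not at 48 h, and its difference was not called with library totals as the scale (adjusted p = 0.0545). SNHG7 and SNHG19 fell further, by 0.66 ± 0.11 and by 0.71 ± 0.21 (adjusted p = 7.14e-05 and 0.0133). For SNHG16 (-0.21 ± 0.08, adjusted p = 0.0415) and SNHG5 (-0.22 ± 0.08, adjusted p = 0.0433) the call was lost in 13 and 15 of 19 alternatives. Of the 12 fits that leave out 1 sample, 10 lost it for each, and adjusted p over those 12 ran from 0.0126 to 0.107 for SNHG16 and from 0.0226 to 0.132 for SNHG5. SNHG20 changed the other way, by 0.41 ± 0.13 (adjusted p = 0.0211, and 0.0536 without control replicate 1 of 48 h). GAS5, EPB41L4A-AS1 and SNHG15, with the values -0.06 ± 0.07, -0.01 ± 0.09 and -0.11 ± 0.13, were not called.

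Some host genes also changed with time in the same medium. In control cells 6 members were higher at 48 h than at 24 h (12.7% of all genes were) and 4 lower (10.4%). SNHG32 (0.38 ± 0.06, adjusted p = 0.000128), SNHG5 (0.28 ± 0.06, adjusted p = 0.00217) and SNHG4 (-0.37 ± 0.07, adjusted p = 0.000811) kept their calls in all 20 alternatives by edgeR or DESeq2. The calls of SNHG6, ZFAS1, EPB41L4A-AS1 and GAS5, at 0.15 to 0.22 on the log2 scale, and of SNHG1, SNHG12 and SNHG20, at -0.20 to -0.28, were each lost without at least 2 of the samples. Over the fits that leave out 1 sample their adjusted p reached 0.0848, 0.115, 0.149, 0.119, 0.0615, 0.143 and 0.141 in the order named.

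In deprived cells 3 members were higher at 48 h than at 24 h (20.7% of all genes) and 10 lower (21.8%). SNHG1 fell by 0.85 ± 0.06 on the log2 scale (adjusted p = 3.96e-10 by edgeR), SNHG19 by 0.91 ± 0.16, SNHG7 by 0.58 ± 0.08 and SNHG12 by 0.52 ± 0.07. SNHG10, SNHG32, SNHG8, SNHG4, SNHG16 and SNHG3 fell by between 0.43 and 0.22, the call of SNHG10 being lost without a filter (adjusted p = 0.0572). SNHG28 rose by 1.47 ± 0.36 (adjusted p = 0.00252), and EPB41L4A-AS1 and SNHG6 by 0.21 ± 0.06 and 0.20 ± 0.06.

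Whether the libraries keep strand is not given in the labels, so reads of a host gene and of a gene that overlaps it cannot be told apart. In GENCODE, 19 members are overlapped by 37 genes, of which 21 were tested, over 18 members. At 24 h, 16 such pairs had a called member. The other gene was called in the same direction in 4 pairs, in the opposite direction in 5 and not called in 7, and at 48 h these numbers were 6, 5 and 5. Of all genes, 28.8% were called higher and 26.9% lower at 24 h, and 33.5% and 34.9% at 48 h.

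The genes named here that overlap the host genes with the largest rises had smaller log2 fold changes at 24 h. ZBTB37, on the strand opposite GAS5, stood at 38.5 ± 2.65 CPM in control and 43.7 ± 3.12 CPM in deprived cells at 24 h and was not called (adjusted p = 0.219 by edgeR). ZNFX1, opposite ZFAS1, rose by 0.14 ± 0.06 at 24 h and 0.44 ± 0.06 at 48 h on the log2 scale. AL671762.1, on the strand of SNHG32, was not called at 24 h (-0.10 ± 0.29) and rose by 1.50 ± 0.24 at 48 h, next to 1.24 ± 0.06 for SNHG32. EPB41L4A was not called at either time (adjusted p = 0.204 and 0.256 by edgeR). LRRC75A, opposite SNHG29, fell by 1.44 ± 0.20 at 48 h, while SNHG29 rose.

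Among members that fell, SNHG7 went the same way as the gene on its other strand. DIPK1B went from 16.7 ± 1.42 to 9.95 ± 0.549 CPM at 24 h, a fall by 0.74 ± 0.12 next to that of SNHG7 by 0.77 ± 0.07, and the part of shared reads in this was not tested. AC015802.6, opposite SNHG16 and at 1.84 ± 0.645 CPM in control cells, fell by 1.58 ± 0.40 at 24 h. AL590560.2, on the strand of SNHG28, fell by 1.14 ± 0.35 at 24 h, next to 1.38 ± 0.36 for SNHG28. GENCODE gives this second gene the name SNHG28 as well, so the pair may not be of separate genes. It is among the pairs counted above as called in the same direction at 24 h. MATR3, which overlaps SNHG4 on the same strand, fell by 0.48 ± 0.06 at 24 h, and SIL1, opposite it, rose by 0.82 ± 0.07. RCC1, on the strand of SNHG3, rose by 0.29 ± 0.06 at 24 h while SNHG3 fell. ABCA12, opposite SNHG31, rose by 1.96 ± 0.14 at 24 h.

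**Figure D5:**
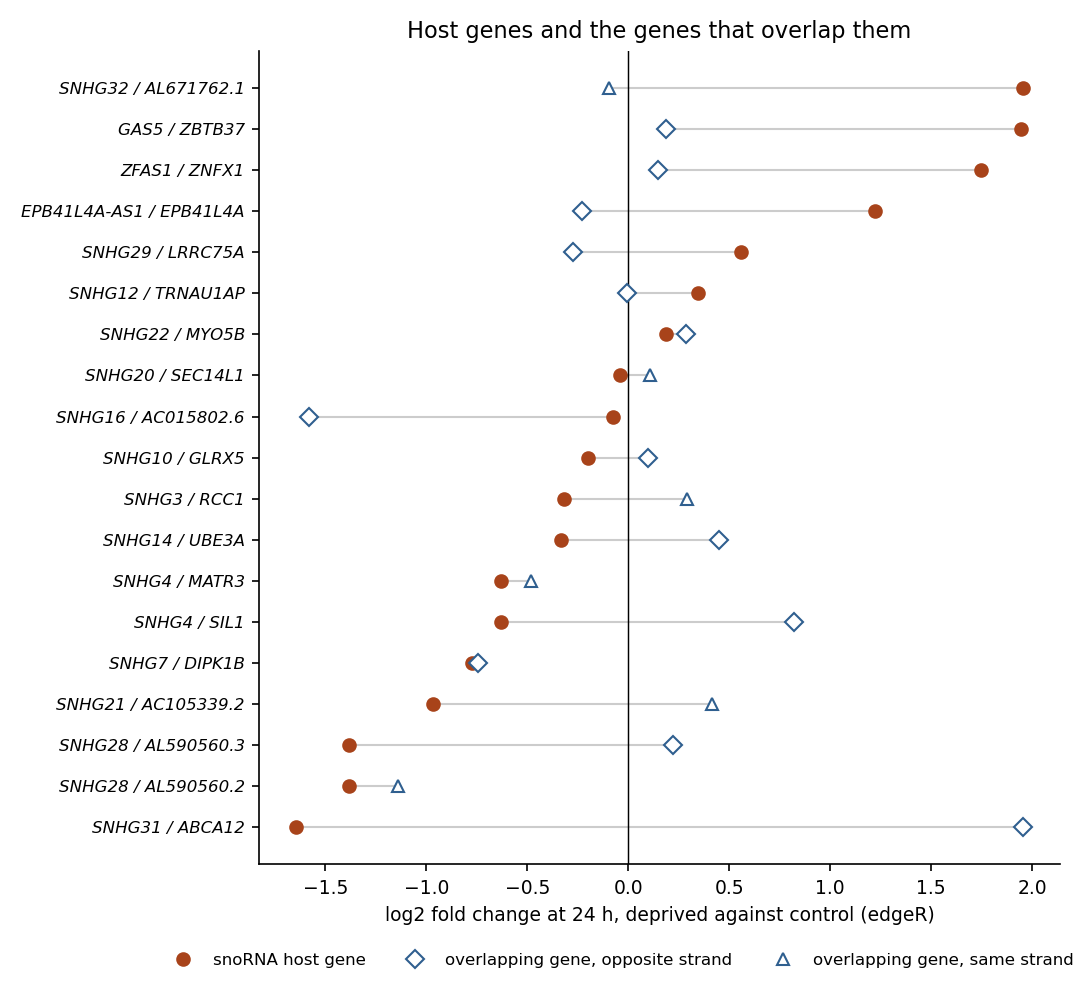
Log2 fold change at 24 h (x axis) of snoRNA host genes (filled circles) and of the tested genes that overlap them in GENCODE on the opposite strand (diamonds) or the same strand (triangles), 1 pair a row (y axis, host / overlapping gene), for 19 of the 21 pairs. GAS5, ZFAS1 and SNHG32 lie between 1.7 and 2.0 with their overlapping genes at 0.19 or lower, and SNHG7 (-0.77) and DIPK1B (-0.74) lie side by side.

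By annotated start, 8 of 14 tested members with a TOP start in GENCODE were higher at 24 h and 3 lower, with a median log2 fold change of 0.33, where 28.8% of all genes were higher and 26.9% lower. Of the 15 without it, 5 were higher and 5 lower, with a median of -0.20. At 48 h these counts were 7 and 5 with a TOP start (median 0.12) and 6 and 5 without (median 0.02), where 33.5% and 34.9% of all genes were. With the RefSeq start added, which takes in SNHG32, the counts were 9 and 3 of 15 at 24 h and 8 and 5 of 15 at 48 h. Members with box C/D snoRNAs alone had 7 higher and 2 lower of 12 at 24 h, and 7 and 4 at 48 h. Several of these counts are near the shares of all genes, and no test of the splits was made.

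Promoter windows from RefSeq (GRCh38.p14, from 250 bases before to 50 bases after the start) were found for 27 members. SNHG15, which rose at both times, was not among them. The letters TGATGNAA, a core form of the element bound by ATF4 with CEBP factors, were in 0 of the 27 on either strand and in 3.62% of all 35116 windows. The E-box CACGTG, the same on both strands, was in 2 of 27, those of SNHG7 and SNHG30, and in 7.26% of all windows. With 27 windows, neither count of members was far from the share of all windows, and neither was tested. The windows lie at RefSeq starts. That of GAS5, at 173869045, is not the start printed above, so the promoter of the printed start was not searched.

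Other genes of snoRNA production, decay and TOP control are described as 5 lists, some of which share DKC1, NOP56, EEF2, TPT1, RACK1 and EEF1B2. Of 19 tested snoRNP proteins and assembly factors, 10 were higher and 1 lower at 24 h, with a median log2 fold change of 0.20 (all genes -0.01, 28.8% higher and 26.9% lower). At 48 h 12 were higher and 3 lower, with a median of 0.38 (all genes -0.02, 33.5% higher and 34.9% lower). DKC1, the pseudouridine synthase of H/ACA particles, rose by 0.92 ± 0.06 at 24 h. NOLC1, a Cajal body chaperone of both particle kinds, rose by 0.72 ± 0.04, ZNHIT6, an assembly factor of box C/D particles, by 1.00 ± 0.06, and NOP56, a box C/D core protein, by 0.53 ± 0.05. RUVBL2, an ATPase of the assembly complex, fell by 0.36 ± 0.06 at 24 h, and the count of 1 lower became 2 or 3 in 9 of 20 alternatives. At 48 h FBL, the box C/D methyltransferase, fell by 0.81 ± 0.07 together with RUVBL2 and PIH1D1.

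Genes of nonsense-mediated decay and the exon junction complex rose in 17 of 21 and fell in 1 at 24 h (median 0.47), where 28.8% of all genes were higher and 26.9% lower. At 48 h 19 rose and 1 fell (median 0.58), against 33.5% and 34.9% of all genes. DHX34, a helicase that acts with UPF1, rose by 0.88 ± 0.06 at 24 h, and ETF1, the translation release factor, by 0.67 ± 0.05. At 48 h CASC3, an exon junction protein, rose by 0.93 ± 0.05. NBAS fell by 0.18 ± 0.05 at 24 h and rose by 0.17 ± 0.05 at 48 h, and PNRC2 rose by 0.12 ± 0.05 at 24 h and fell by 0.29 ± 0.05 at 48 h.

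The list of protein-coding snoRNA hosts leaves out ribosomal protein genes apart from RPSA, so it does not stand for all such hosts. Of its 25 genes, all tested, 17 rose and 3 fell at 24 h (median 0.21, all genes 28.8% and 26.9%). At 48 h 15 rose and 6 fell (median 0.25; all genes 33.5% and 34.9%). HSPA9, a mitochondrial chaperone, rose by 1.12 ± 0.05 and WDR43, a ribosome assembly factor, by 0.88 ± 0.05 at 24 h. HSPA8, a cytosolic chaperone that hosts box C/D snoRNAs, was not called at 24 h (-0.10 ± 0.07) and rose by 1.44 ± 0.07 at 48 h. EEF2, IPO7 and PRPF39 fell at both times.

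Of 16 translation factors and related genes known for TOP starts, 3 rose and 7 fell at 24 h (median -0.09), beside 28.8% higher and 26.9% lower over all genes. At 48 h 1 rose and 12 fell (median -0.39), beside 33.5% and 34.9%. At 24 h 11 were lower with upper-quartile scaling or with library totals as the scale. EIF4B fell by 0.30 ± 0.05 at 24 h and 0.80 ± 0.05 at 48 h, EIF3E by 0.28 ± 0.05 and 0.69 ± 0.05, and HNRNPA1 by 1.26 ± 0.04 at 48 h. EEF1A1 rose by 0.28 ± 0.05 at 24 h and was not called at 48 h. TPT1 was the gene that rose at 48 h.

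Regulators of TOP RNAs rose in 8 of 21 and fell in 5 at 24 h (median 0.08), and rose in 11 and fell in 7 at 48 h (median 0.19). The shares that fell were near those of all genes, 26.9% at 24 h and 34.9% at 48 h, while 28.8% and 33.5% of all genes were higher. EIF4EBP1, the repressor of cap-dependent translation that mTOR inactivates, rose by 1.43 ± 0.07 at 24 h and 1.98 ± 0.07 at 48 h. DDIT4, an inhibitor of mTOR signalling, rose by 1.71 ± 0.09 at 24 h, and LARP1, which binds TOP starts, by 0.60 ± 0.05. RPTOR, the scaffold of mTOR complex 1, rose by 1.05 ± 0.06 at 48 h. RICTOR, EIF4EBP2, DEPTOR, TSC1 and PDCD4 fell at 24 h, by between 0.83 and 0.28.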

How the data were processed

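RNA-seq of HCT116 cells was used, 12 samples in 4 groups of 3. The authors deposited estimated counts per gene (expected counts, not whole numbers), with gene lengths, in 1 table. Per the submitters' processing notes fastp, HISAT, RSEM and GRCh38 were used, while the annotation release, strandedness and the order of steps are not given in the sources used here. RSEM shares reads between overlapping or similar genes by estimate, so counts of overlapping genes depend on that estimate.

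The 60987 rows held 316 without a gene name, with a mean of 0.762% to 1.54% of counts per group, which were left out. Estimated counts were rounded and scaled by TMM, and genes were kept by filterByExpr (minimum count 10, minimum total 15). One model of 4 group means was fitted to 16994 genes with edgeR 4.0.16 (glmQLFit and glmQLFTest, limma 3.58.1, R 4.3.3), with 5 contrasts: deprivation at 24 h, at 48 h, their difference, and 48 h against 24 h in each medium. P-values were adjusted by Benjamini-Hochberg over all tested genes, and an adjusted p under 0.05 was a call. Each log2 fold change has as its SE the absolute value over the square root of F. CPM values use TMM-scaled totals. The test was also run on simulated data with far fewer changed genes than were called here. That run therefore does not give the error rates for these data. The biological coefficient of variation was 6.4%. Total estimated counts of 19146108 to 24179533 per sample leave members under 1 CPM with few counts.

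Host genes were chosen by name. Values in every sample are given for the 12 most abundant tested members and, at each time, the 3 with the largest and the 3 with the smallest log2 fold change at 1 CPM or more. From each gene list, the 3 genes with the smallest adjusted p at each time were named, with any needed to make a count of 5 or fewer clear. Of the genes so chosen and of the overlapping genes, 3 are not reported here by name. The overlapping genes named, and the further members given by group means, were chosen after their values were seen. The members and lists were chosen with earlier results of these data known. Coordinates and transcript starts are from GENCODE release 29 on GRCh38, not stated to be the authors' annotation. The starts marked RefSeq, promoter windows and snoRNA positions are from RefSeq on GRCh38.p14. Tables and figures were made with Python 3.11.15, pandas 2.3.3 and matplotlib 3.10.9. Alternatives were RLE, upper-quartile and total-count scaling, DESeq2 1.42.0, no filter, a minimum mean of 5 CPM, a block for replicate number, the compared groups alone, and each sample left out in turn.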

Additional observations from a re-analysis of the deposited data

Results flagged for a closer look

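The deprivation response at 48 h differed from that at 24 h for 9 host genes, by the interaction term of edgeR's quasi-likelihood fit with Benjamini-Hochberg adjustment, as the difference of log2 fold changes. Of the 29 tested members 27.6% were called lower and 3.45% higher, against 19.2% and 16.4% of all genes. The difference was -0.72 for SNHG32, from 1.95 to 1.24, -0.65 for SNHG1, from 0.86 to 0.21, and -0.32 for ZFAS1 (-0.315), from 1.75 to 1.43. SNHG5 had -0.22, from 1.60 to 1.39, and SNHG12 had -0.32, from 0.35 to 0.03. SNHG7 had -0.66, from -0.77 to -1.44, SNHG19 -0.71, from -0.80 to -1.51, and SNHG16 -0.21, from -0.08 to -0.28. SNHG20 had 0.41, from -0.04 to 0.37, the only one of the 9 above 0. The calls of SNHG16 and SNHG5 were lost in 13 and 15 of 19 alternatives, among them 10 of the 12 that leave out 1 sample for each, that of SNHG20 in 2 and that of SNHG12 in 1.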

How the results depend on the processing

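The settings for summed levels and gene list counts were chosen after seeing the data. Of 1773 values of single host genes under an alternative, 1673 kept their direction and side of the threshold, 79 lost the call, 2 gained it and 19 changed sign. Host genes called at 24 h numbered 13 higher and 8 lower whichever sample was left out. Over all genes the calls then ran from 4504 to 5017 higher and from 4068 to 4692 lower, next to 4886 and 4565 in the main fit. For the changes of scaling, filter and groups that follow, the counts over all genes are not given. The member counts under them are a description only. With library totals as the scale, 5 host genes had a lower response at 48 h than at 24 h (8 with TMM), with a median difference of -0.083. Without a filter the 24 h median was 0.069 and 0 host genes had a higher response at 48 h by edgeR, SNHG20 having an adjusted p of 0.073. With a mean of at least 5 CPM, 4 were lower at 24 h (median 0.54) and 6 at 48 h (median 0.33), with a median difference of -0.16, since fewer members were tested. With the compared groups alone the 48 h median was 0.13. The cause of the other shifts was not tested. Leaving out 1 sample gave 2 to 6 higher and 1 to 4 lower with time in control cells and 1 to 2 with a higher response at 48 h. Over all genes these counts ran from 1559 to 2329, from 1307 to 2027 and from 2420 to 2814. The medians of the host genes then ran from -0.067 to 0.13 at 24 h, from 0.029 to 0.22 at 48 h, from -0.16 to -0.079 for their difference and from -0.18 to -0.078 with time in deprived cells.

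Each sign change was in a member without a call at that time. At 48 h SNHG12 was -0.0079 with the mean of at least 5 CPM, -0.031 with upper-quartile scaling and -0.044 to 0.10 leaving out 1 sample. SNHG22 was -0.040 with upper-quartile scaling, -0.0033 with library totals and -0.22 to 0.32 leaving out 1 sample. SNHG9 was -0.057 with upper-quartile scaling, -0.024 with library totals and -0.13 to 0.16 leaving out 1 sample. Leaving out 1 sample took SNHG11 from -0.13 to 0.025 and SNHG28 from -0.50 to 0.029 at 48 h, and SNHG25 from -0.60 to 0.23 at 24 h. The summed level of host genes in deprived cells was 1.78 to 1.90 times the control at 24 h and 1.60 to 1.71 times at 48 h. Among TOP translation factors 11 were lower at 24 h, in place of 7, with upper-quartile scaling and with library totals. The 1 snoRNP gene lower at 24 h became 2 or 3 in 9 of 20 alternatives.

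With the replicate number as a block, the log2 fold change at 48 h was -0.0040 for SNHG22 and -0.0011 for SNHG9, both not called. Same-numbered samples deviated together only weakly, with correlations of -0.04 to 0.13. The largest correlation between control and deprived samples at 48 h, 0.13, was that of the samples numbered 1. With 3 samples a group these values cannot settle whether the numbers pair the samples.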
